A study of Homo sapiens with 3 samples.

Results

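The 10 genes examined here, CCL2, CCL3, CCL4, CCL5, CCL7, CCL20, CCL22, CCL24, CCL26 and CCL28, encode CC chemokine ligands. They were taken from a fixed list of symbols, after the transcript accessions of the array had been matched to RefSeq. The rule used no measured value, but the list was drawn up with earlier results of these arrays known. They made up 10 of the 19699 genes named and 11 of the 34041 probes with a value on every array, since CCL4 had 2 probes and the other ligands 1 each.

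Chemokines are small secreted proteins that direct the migration of leukocytes and other cells along concentration gradients. In the CC class the first cysteines of the mature protein are adjacent, and the ligands act on CC chemokine receptors, which couple to G proteins. Many ligands bind several receptors, and atypical receptors take up ligands without the usual signal. In epithelial tumours, CC ligands made by the cancer cells are known for attracting monocytes, T cells, dendritic cells and eosinophils. Transcription of several of them is known to be induced by NF-κB and AP-1 downstream of TNF and IL-1, and their mRNAs are often short-lived.

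The cells were PANC-1, an established human line from a carcinoma of the pancreatic duct, grown in culture without leukocytes, stroma or vessels. RNA came from control cells without an agent, from cells given cantharidin and from cells given okadaic acid (OA). Cantharidin is a blister beetle toxin and OA a toxin of marine dinoflagellates, and both inhibit the serine/threonine protein phosphatase PP2A and related phosphatases. Both treatments lasted 24 h, and the sample labels give 20 µM for each agent, with no vehicle named for the control cells. The treatment protocol states this dose once, before cantharidin, so the dose of OA is less certain, and the agents may not have been compared at equal dose. There was 1 array per group, so no value has a replicate check, no test across arrays was possible, and variation between cultures was not measured.

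Values are the processed intensity of the scanner software in arbitrary units, with its background subtracted and no scaling between arrays. For comparisons, each array was first brought to a common 75th percentile, and differences between arrays are given on the log2 scale, with ± giving the error that the scanner software assigned to the spots of the 2 arrays, which covers measurement within an array only. A gene entered a comparison if at least 1 of its 2 arrays measured it well above background, and it is called higher or lower at 1.5-fold. Both agents were set against the same control array, so their differences from control are not independent of each other. All arrays lay on 1 slide, where position went with the group. The share of probes well above background was 72.8% for control, 73.7% for cantharidin and 67.8% for OA, and the lowest signal counted as such was 35.0, 21.9 and 58.0.

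With OA, the chemotactic ligands CCL3, CCL4, CCL7, CCL20 and CCL26 were higher than in control cells, CCL24 and CCL28 were lower, and CCL2 and CCL5 stayed within 1.5-fold. With cantharidin, CCL3, CCL20 and CCL26 were higher, CCL2, CCL5 and CCL28 were lower, and CCL4, CCL7 and CCL24 stayed within 1.5-fold. CCL22 was below background on every array. Of the 9 ligands compared, cantharidin thus gave 3 higher and 3 lower, where 27.5% of all genes were higher and 34.1% lower. OA gave 5 higher and 2 lower, against 28.1% and 28.8% of all genes. The counts of 3 and 3 under cantharidin lie close to that background, while the count of 5 of 9 under OA lies above it. The list was drawn up with earlier results of these arrays known, so that excess cannot be taken as particular to CC ligands. Over ligands well above background on all arrays, which leaves out CCL3, 4 of 8 were higher under OA. The median difference of the ligands from control was -0.31 under cantharidin and 1.60 under OA, whereas it was -0.16 and 0.01 over all genes. The OA median of the ligands was 0.76 with the normexp background correction and 1.04 over ligands well above background on all arrays.

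Set directly against cantharidin, OA gave the higher signal for 8 of the 9 ligands and the lower signal for 0, where 29.5% of all genes were higher and 22.3% lower. CCL24 was the ligand within 1.5-fold. The 8 include CCL28 (0.67 ± 0.40), which fell short of 1.5-fold in 4 of 10 alternatives. The list was drawn up with earlier results of these arrays known, so this excess cannot be taken as particular to CC ligands. The median difference was 1.91 for the ligands and 0.13 over all genes. It ranged from 1.31 to 2.30 over the alternative settings.

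**Figure D1:**
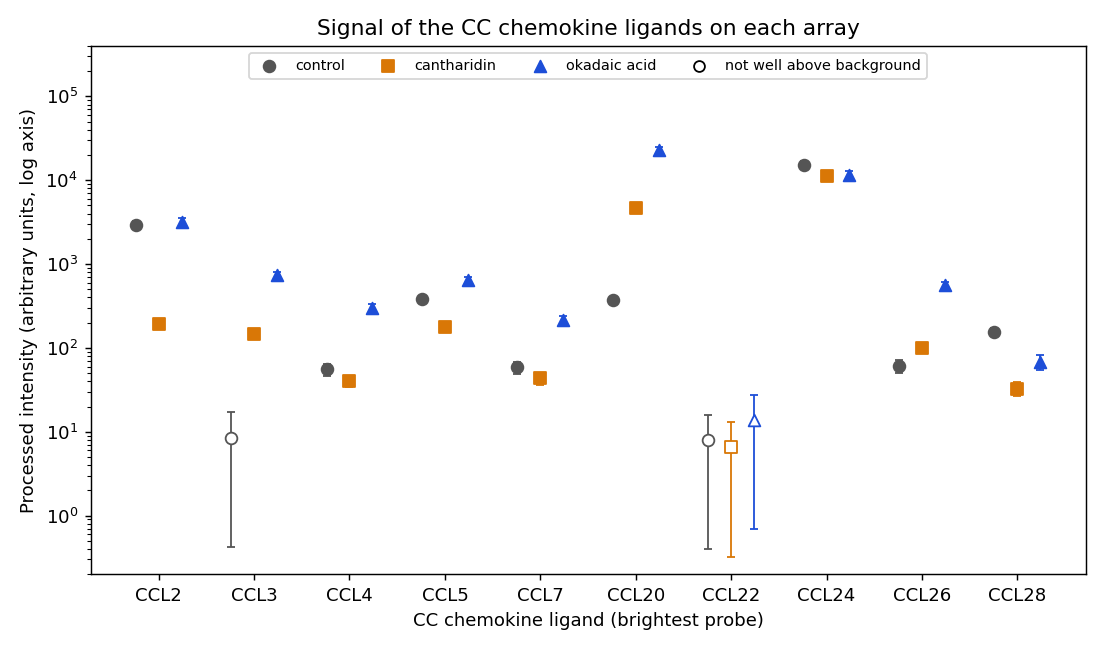
Processed intensity of the brightest probe of each CC chemokine ligand on the control, cantharidin and OA arrays (log axis, arbitrary units). Points are 1 array each, bars are the scanner software's error, cut short where they would come near 0, and open symbols were not well above background. The OA signal lies clear of both others for CCL3, CCL4, CCL7, CCL20 and CCL26, and levels of different genes cannot be compared because each probe has its own brightness.

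To show what the ligands higher under OA carry in front of their genes, the 250 bases before the most upstream RefSeq start are printed for CCL20, CCL3, CCL7 and CCL26, on the strand of the gene and 5′ to 3′. Windows for CCL2, CCL4 and CCL5 were not used here. Capitals mark matches to TATAAA on the strand of the gene, and to TGANTCA (an AP-1 site), TTGCNNAA (a C/EBP site) or the kappa B consensus on either strand. The windows lie in GRCh38.p14 at chr2:227813592-227813841 (+) for CCL20, chr17:36090144-36090393 (-) for CCL3, chr17:34269971-34270220 (+) for CCL7 and chr7:75789747-75789996 (-) for CCL26.
CCL20: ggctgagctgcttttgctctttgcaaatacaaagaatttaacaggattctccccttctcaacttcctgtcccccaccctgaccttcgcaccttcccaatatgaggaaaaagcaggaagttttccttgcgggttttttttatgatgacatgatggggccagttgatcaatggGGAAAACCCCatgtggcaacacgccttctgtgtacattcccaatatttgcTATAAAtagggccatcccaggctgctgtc
CCL3: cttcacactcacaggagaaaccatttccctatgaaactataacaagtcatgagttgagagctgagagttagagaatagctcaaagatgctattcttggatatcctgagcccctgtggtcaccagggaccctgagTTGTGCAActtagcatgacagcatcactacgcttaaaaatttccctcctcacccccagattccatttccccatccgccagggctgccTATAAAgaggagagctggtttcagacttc
CCL7: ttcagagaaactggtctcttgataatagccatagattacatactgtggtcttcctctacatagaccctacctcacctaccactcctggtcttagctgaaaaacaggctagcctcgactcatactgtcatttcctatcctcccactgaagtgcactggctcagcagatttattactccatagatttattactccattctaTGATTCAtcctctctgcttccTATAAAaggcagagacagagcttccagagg
CCL26: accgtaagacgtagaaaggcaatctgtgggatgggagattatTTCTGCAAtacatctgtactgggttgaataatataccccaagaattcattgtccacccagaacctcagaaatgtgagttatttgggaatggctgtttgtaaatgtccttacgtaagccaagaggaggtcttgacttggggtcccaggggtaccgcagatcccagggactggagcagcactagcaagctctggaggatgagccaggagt
TATAAA was found in 3 of the 7 ligand windows examined, those of CCL20, CCL3 and CCL7, ending 24, 24 and 25 bases before the start. Over 35116 promoter windows of the same length, 6.8% held it on the strand of the gene. A kappa B match stood in the windows of CCL20 and CCL22, against 9.96% of all windows. TGANTCA stood in those of CCL7 and CCL24, against 6.57%, and TTGCNNAA in those of CCL3 and CCL26, against 9.05%. In the printed windows the TGANTCA match of CCL7 and the kappa B match of CCL20 lie upstream of TATAAA. CCL28 held none of the 4 motifs in its most upstream window. A match describes these letters only.

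CCL20, which attracts CCR6-bearing dendritic cells and lymphocytes to epithelia, had an intensity of 369 in control cells, 4682 under cantharidin and 22880 under OA. Both treated arrays were far above control, and OA was the higher of the pair. The difference was 3.80 ± 0.21 for cantharidin, or 14.0-fold, and 5.70 ± 0.21 for OA, or 51.9-fold. OA against cantharidin gave 1.90 ± 0.20, or 3.72-fold. No alternative brought either difference from control below 3.55. CCR6, the receptor of CCL20, was also higher under both agents, with 61.5, 219 and 318 in control, cantharidin and OA cells (1.97 and 2.12).

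CCL28, a ligand of CCR10 and CCR3 made by mucosal epithelia, went the other way. Its intensity was 156 in control cells, 32.7 under cantharidin and 68.4 under OA, so that both treated arrays lay below control. The signal was 4.32-fold below control with cantharidin (-2.11 ± 0.31) and 2.72-fold below it with OA (-1.44 ± 0.33). These treated signals were 1.49 and 1.18 times the floor of their arrays, the lowest signal counted as well above background, so little range was left below them. The normexp background correction gave -1.03 and -0.80. CCL28 passed 1.5-fold between OA and cantharidin (0.67 ± 0.40), but fell short of it in 4 of 10 alternatives. CCR10 gave 515, 468 and 1044, so that it was 1.70-fold higher under OA and level with control under cantharidin.

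The monocyte attractants CCL2 and CCL7 are neighbours on chromosome 17 and share the receptor CCR2. CCL2 had an intensity of 2967 in control cells, 192 under cantharidin and 3195 under OA. The probe was spotted 10 times on each array, with lowest, median and highest values of 2812, 2971 and 3120 for control, 163, 195 and 213 for cantharidin, and 3034, 3176 and 3369 for OA. No cantharidin spot reached a spot of the other arrays, while control and OA spots overlapped. CCL2 was 14.1-fold lower under cantharidin (-3.81 ± 0.21) and differed from control by 1.11-fold under OA (-0.15 ± 0.20), where the sign turned to 0.11 without scaling. OA against cantharidin gave 12.7-fold (3.66 ± 0.21).

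**Figure D2:**
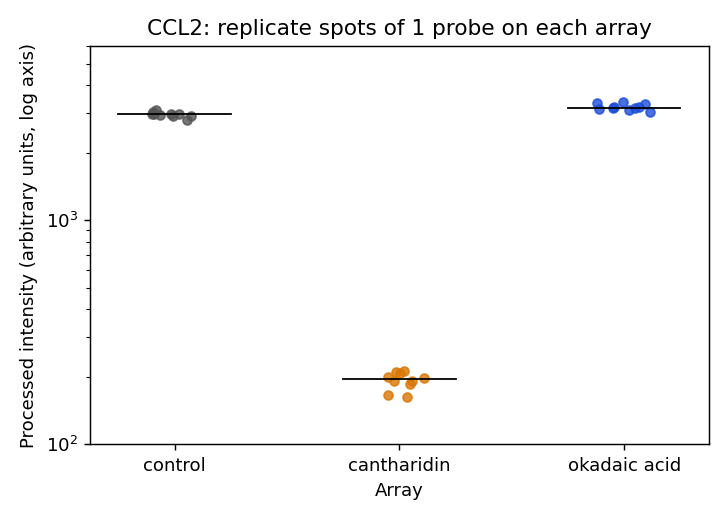
Processed intensity of the 10 replicate spots of the CCL2 probe on each array (log axis, arbitrary units), with a line at the median of the spots. The cantharidin spots lie between 163 and 213 and the control and OA spots between 2812 and 3369. The spread is that of spots on 1 array and not of cultures.

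CCL7 had 58.8 in control cells, 43.2 under cantharidin and 213 under OA. Control and cantharidin were near each other and OA stood above them. The difference under cantharidin was -0.31 ± 0.33, within the error of the scanner, and under OA CCL7 was 3.04-fold higher (1.60 ± 0.28). The control and cantharidin signals were 1.68 and 1.98 times the floor of their arrays, and normexp lowered the OA difference to 0.76. The neighbouring ligands therefore had different patterns under OA, where CCL7 was called and CCL2 was not. Their difference was not tested. The brighter probe of CCR2 was well above background under cantharidin only, at 96.0, which was at least 3.02-fold higher than control, and the other CCR2 probe was below background on every array.

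CCL3 (MIP-1α), CCL4 (MIP-1β) and CCL5 (RANTES) attract macrophages and T cells. CCL3 gave 8.51 ± 8.49 in control cells, which was not well above background, and reached 148 ± 16.0 under cantharidin and 736 ± 74.9 under OA. The bound on its fold over control was therefore at least 4.66-fold with cantharidin and at least 17.6-fold with OA. These bounds hold for the processed signal, and normexp, which adds an offset to every signal, gave log2 differences of 1.47 and 2.78, below both. Between the agents, where both arrays measured it, OA was 3.78-fold higher (1.92 ± 0.21).

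CCL4, the gene next to CCL3 on chromosome 17, had 55.7 in control cells, 40.3 under cantharidin and 302 under OA on its brighter probe. The cantharidin difference of -0.33 ± 0.33 was no larger than its error. Under OA the probe was 4.55-fold higher (2.19 ± 0.28), and 1.19 with normexp. Its second probe was below background in control and cantharidin cells, at 29.5 and 21.8, and gave 250 under OA, at least 5.97-fold above control and at least 8.68-fold above cantharidin. Both probes of CCL4 thus had their highest signal on the OA array.

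CCL5 followed another course, with 383 in control cells, 179 under cantharidin and 639 under OA. It was 1.94-fold lower under cantharidin (-0.96 ± 0.21) and 1.40-fold above control under OA (0.48 ± 0.21), short of 1.5-fold. Without scaling the OA difference was 0.74 and passed it. OA against cantharidin gave 2.71-fold (1.44 ± 0.21). Near-copies of CCL3 and CCL4 exist in the genome, and binding of their transcripts to these probes was not tested. The copy CCL3L3 gave 160, 148 and 194 on its brighter probe, within 1.5-fold under both agents, and 49.2, 51.1 and 171 on the other, 2.91-fold higher under OA.

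**Figure D3:**
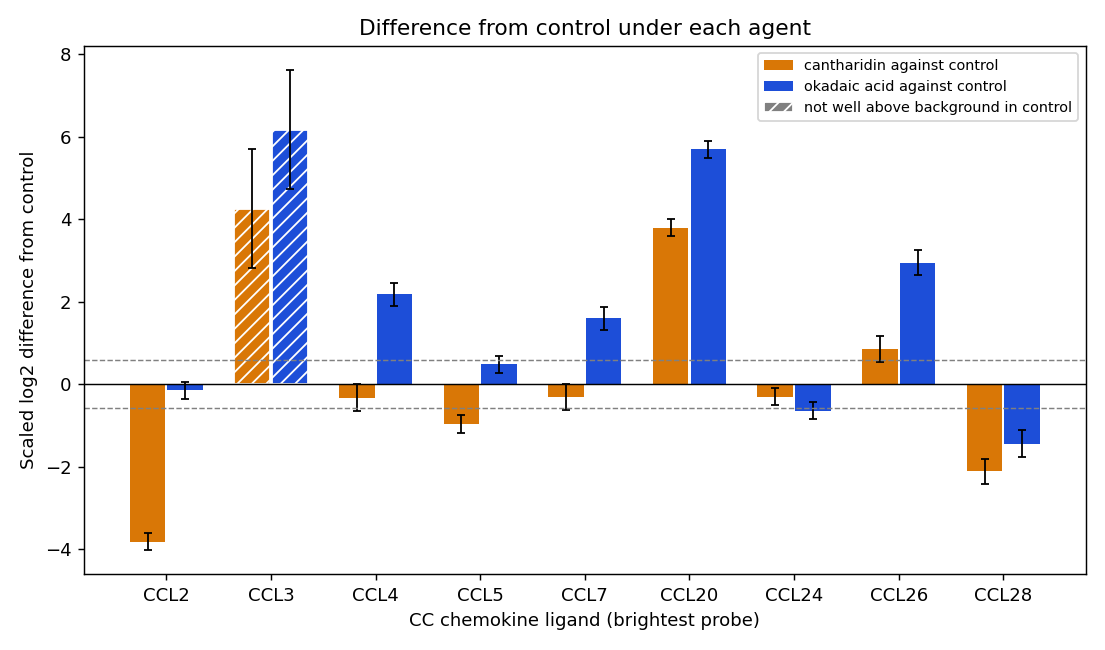
Scaled log2 difference from control of the 9 CC chemokine ligands compared, for cantharidin and OA, with the scanner software's error as bars and dashed lines at 1.5-fold. Hatched bars mark CCL3, whose control signal was not well above background, so that only its bounds (at least 4.66-fold and at least 17.6-fold) hold. The OA bar is the higher of each pair except for CCL24.

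The eotaxins CCL24 and CCL26 attract eosinophils through CCR3 and are neighbours on chromosome 7. CCL24 (eotaxin-2) had 15220 in control cells, 11235 under cantharidin and 11642 under OA. Its differences were small, with -0.30 ± 0.20 for cantharidin and -0.64 ± 0.20 for OA. The latter was 1.56-fold lower and fell within 1.5-fold in 3 of 10 alternatives, with -0.39 without scaling. CCL26 (eotaxin-3), also known as a target of IL-4 and IL-13, had 60.9, 101 and 562. It was 1.82-fold higher under cantharidin (0.86 ± 0.31), which normexp lowered to 0.49, within 1.5-fold. Under OA it was 7.73-fold higher (2.95 ± 0.30), and OA against cantharidin gave 4.25-fold (2.09 ± 0.23). The signals of CCL26 were 1.74, 4.60 and 9.68 times the floor of the control, cantharidin and OA arrays. CCR3 was below background on every array.

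CCL22, which attracts regulatory T cells through CCR4, gave 8.03, 6.50 and 13.8, none of them well above background, and no fold was taken. CCR4 was below background on every array too.

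Among the 15 other CC ligands on the array, 11 were well above background on some array. Under cantharidin 3 of 11 were higher and 2 lower, with a median of -0.42, where 27.5% and 34.1% of all genes were. One of the 3 is CCL18, whose call rests on a control signal below background. Under OA 1 of 10 was higher and 4 lower, with a median of -0.07 that turned to 0.19 without scaling, where 28.1% and 28.8% of all genes were. The 4 lower include CCL1, whose bound does not reach 1.5-fold. CCL27, a skin ligand of CCR10, gave 141, 1320 and 580 and was 10.3-fold and 3.45-fold higher. CCL1, the ligand of CCR8, gave 64.9 in control cells and 478 under cantharidin, 8.11-fold higher, and 14.5 under OA, not well above background and at least 1.33-fold lower. CCL11 (eotaxin-1) was 1.54-fold lower under cantharidin and 1.24-fold above control under OA. CCL19, which guides cells to lymph nodes, was 1.86-fold and 1.93-fold lower, but 1.12-fold and 1.20-fold below control on its second probe.

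CCL25 was at least 1.66-fold lower under OA and 1.48-fold below control under cantharidin, and its other probe was within 1.5-fold under both. CCL16 was 1.73-fold lower under OA on its brighter probe and at least 5.28-fold higher on the other, so its probes disagreed. CCL18 was well above background under cantharidin only, at 31.6, with no bound on its fold. CCL15, CCL17 and CCL21 were within 1.5-fold under both agents on their brightest probes, but the other CCL21 probe was 2.10-fold lower under cantharidin. Unlike the 10 ligands, the other CC ligands had a median near that of all genes under OA, as the plot of related gene lists shows. The 10 were listed with earlier results of these arrays known, so this contrast cannot be separated from the choice of list. The difference between these lists was not tested.

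Of the 14 CC receptors, 8 were well above background on some array. Under cantharidin 2 of 8 were higher and 4 lower, against 27.5% and 34.1% of all genes. Under OA 3 of 7 were higher and 0 lower, against 28.1% and 28.8%. The medians were -0.43 and 0.36. CCR7, the receptor of CCL19 and CCL21, was 1.71-fold higher under OA (0.78 ± 0.35) and 1.15-fold below control under cantharidin (-0.20 ± 0.37). Its signals were 1.55, 1.96 and 1.91 times the floor of the control, cantharidin and OA arrays. Among the atypical receptors, ACKR1 was 1.62-fold lower under cantharidin and 1.28-fold above control under OA. ACKR2 was 1.57-fold lower under cantharidin (-0.65 ± 0.51), where it was not well above background, and its control signal was 1.17 times the floor. CCRL2 was 1.78-fold lower under cantharidin (-0.83 ± 0.36) and 1.24-fold above control under OA (0.31 ± 0.32). Its second probe was below background on every array.

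**Figure D4:**
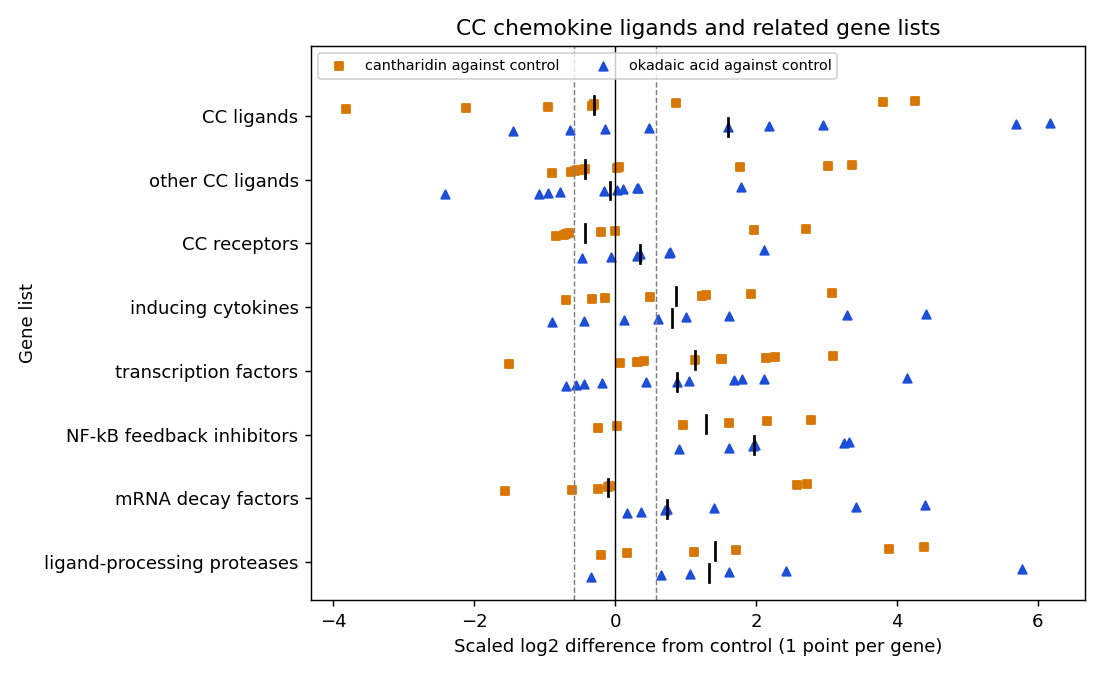
Scaled log2 difference from control of each gene compared (1 point per gene), for the CC chemokine ligands and 7 related gene lists, with black ticks at the median of a list and dashed lines at 1.5-fold. For the ligands the medians are -0.31 under cantharidin and 1.60 under OA. Points of genes not well above background on 1 array are shown at their measured difference.

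Genes that are known to drive CC ligand transcription were compared next. For each of the following lists the shares to read beside its counts are those of all genes, 27.5% higher and 34.1% lower under cantharidin and 28.1% and 28.8% under OA. Of 11 transcription factors, 6 were higher and 1 lower under each agent, with medians of 1.14 and 0.89. The NF-κB subunits RELB, RELA and REL had 3.09, 2.27 and 2.15 under cantharidin and 1.68, 0.89 and 2.11 under OA. FOS, a subunit of AP-1, had 1.51 and 4.14, NFKB1 had 1.14 and 1.80, and CEBPB, a C/EBP factor, 1.52 and 1.05. On their brightest probes the 6 feedback inhibitors of NF-κB were all higher under OA and 4 were higher under cantharidin, with medians of 1.97 and 1.29. NFKBIA, which encodes IκBα, was level with control under cantharidin (0.03) and higher under OA (1.98), and TNFAIP3 had 1.61 and 3.25, CYLD 2.15 and 3.33, and NFKBIB 2.79 and 1.96. A second NFKBIB probe gave 1.72 and 0.43, within 1.5-fold under OA.

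Among 8 of 10 inducing cytokines that could be compared, 4 were higher and 1 lower under cantharidin, and 5 were higher and 1 lower under OA, with medians of 0.87 and 0.81. The cantharidin median was 0.18 over the cytokines that every array measured well above background, and the OA median 0.32 with normexp. TNF had 1.30 and 4.41. IL1B gave 53.6, 38.7 and 128, higher under OA and within 1.5-fold under cantharidin, while IL17A was lower under both (-0.69 and -0.89). OSM had 1.93 and 1.61 on its brightest probe and -0.87 and -0.44 on another. IL13, an inducer of CCL26, was 2.36-fold higher under cantharidin and not well above background under OA, and IL4 was below background on every array. Of 7 factors that control mRNA decay, 2 were higher and 2 lower under cantharidin and 5 higher and 0 lower under OA, with medians of -0.10 and 0.74. The cantharidin counts are near the shares of all genes. ZFP36L2 had 2.72 and 4.40 and ZC3H12A, the RNase Regnase-1, 2.59 and 3.42. ZFP36L1 was lower under cantharidin (-1.56) and higher under OA (1.40). Among proteases known to cleave CC ligands or release receptors, 4 of 6 were higher under cantharidin and 5 of 6 under OA, 0 were lower, and the medians were 1.42 and 1.34. MMP1 had 4.38 and 1.62 and MMP9 1.12 and 2.42. ADAM10 was 2.09-fold higher under OA and within 1.5-fold under cantharidin on its brighter probe, but within 1.5-fold under OA and 2.17-fold lower under cantharidin on the other. DPP4, which trims several CC ligands, was below background on every array.

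Many CC ligands are also made by leukocytes, so cell type markers were read on the same arrays. All 7 epithelial markers were well above background in control cells and 6 under each agent, with CDH1 below background under both. Under cantharidin 1 was higher and 4 lower, and under OA 2 were higher and 4 lower, beside the shares of all genes above. CLDN4 was 16.2-fold and 2.83-fold lower and EPCAM 3.42-fold and 2.20-fold lower, while KRT18 was 1.99-fold and 2.29-fold higher. Of 3 mesenchymal markers, CDH2 was 13.9-fold and 5.02-fold lower, VIM was within 1.5-fold and 1.57-fold lower, and FN1 was below background. Of 13 leukocyte markers, 13 were well above background in control cells, 13 under cantharidin and 12 under OA. Their summed intensity, in which bright probes weigh most and which is not scaled between arrays, was 11753, 11081 and 32145. Between control and OA, CD14 went from 2535 to 11044 and CD68 from 2945 to 12731. Under cantharidin 3 of 13 were higher and 2 lower, and under OA 5 were higher and 1 lower. The 5 higher under OA were CD14 at 3.65-fold, CD68 at 3.62-fold, CD163 at 1.73-fold, CSF1R at 2.40-fold and ITGAX at 4.99-fold, and the last pair were also higher under cantharidin. PTPRC, the pan-leukocyte marker, gave 372, 263 and 405 on its brightest probe, within 1.5-fold, while another of its probes exceeded control at least 5.63-fold with cantharidin and at least 3.15-fold with OA. Of 4 endothelial markers 2 were well above background on each array, and of 5 fibroblast markers 2, 2 and 1. The part of these markers in the ligand values was not tested, and fewer cells expressing a ligand cannot be told apart from less RNA per cell.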

How the data were processed

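Total RNA of 3 PANC-1 cultures was labelled with Cy3 and hybridised to Agilent 1-colour arrays, 1 per group, grouped by sample title. The authors deposited spot intensity values from Feature Extraction 11.0.1.1, background-subtracted and not scaled between arrays per the file headers (probe annotation hg19), with flags for outliers, saturation and signal well above background. A deposited table holds normalized log2 values, made in a way not given in the sources used here and used only as an alternative. No transcript spot was saturated.

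Here log2 intensity was averaged over unflagged spots and each array's 75th percentile (784, 713 and 936 for control, cantharidin and OA) was subtracted, without a pseudocount. Accessions were matched to RefSeq (GRCh38.p14) by name, and for a gene with several probes the one brightest on average was used. Because that annotation uses another build, it gave names and neighbouring genes only. A dim signal gave "at least" the fold of the bright signal over the higher of itself and the lowest signal well above background. Promoter windows came from RefSeq and were searched over 250 bases before the start. A seeded simulation with planted changes was used to check the counting script.

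The genes and lists were chosen with earlier results of these data known. Named were the 10 ligands, every other CC ligand or receptor well above background on some array, and from each other list up to 4 genes per agent with the largest difference among those past 1.5-fold and measured on both arrays. Other genes of these lists and the cell type markers were named after their values were seen. NFKB2, AIF1, CCL3L1, CCL4L1 and CCL4L2 were not analysed here, and 1 gene that the rule would name is not reported here. Alternatives were normexp (offset 50), other scalings, other filters, the deposited table, a 2-fold threshold and the median over probes. Setting dim signals to the floor was added after seeing the data. Tools were Python 3.11.15 (numpy 2.4.6, pandas 2.3.3, matplotlib 3.10.9) and R 4.3.3 (limma 3.58.1). Precision is limited by the number of arrays.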

Additional observations from a re-analysis of the deposited data

Results flagged for a closer look

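CCL1 moved in opposite directions, with a difference from control of 3.02 under cantharidin and -2.42 under OA on the log2 scale. It was selected because the arrays of the agents lay on opposite sides of control. With 1 array per group this difference between the agents was not tested. The OA value rests on a signal of 14.5 that was not well above background, for which the bound is at least 1.33-fold lower than control and at least 10.8-fold lower than cantharidin. Single samples could not be examined for outlying values, since each group held 1 array.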

How the results depend on the processing

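The count of ligands lower under OA was 2 and became 1 with the 75th percentile of detected probes, without scaling, with the deposited table and with the 2-fold threshold. The other counts of ligands higher or lower stayed within 1.5 times their value under each of the 11 alternatives, from 2 to 3 in either direction under cantharidin, 4 to 6 higher under OA and 7 to 9 higher for OA against cantharidin. Over the ligands, 228 of 267 alternative differences moved by no more than the scanner error and 39 by more. Most of the 39 arose under normexp, which shrinks log2 differences of dim genes, or without scaling, which shifts all genes of an array alike. The other filters left every value as it was, as did the median over probes for ligands with 1 probe. Setting dim signals to the floor could alter CCL3 only. Part of the 228 was thus fixed in advance, so that share does not measure stability. The range for CCL3 was 1.47 to 4.83 under cantharidin and 2.78 to 6.95 under OA, and that for CCL26 under OA 1.85 to 3.50. CCL24 turned from -0.34 to 0.05 between the agents without scaling. The median of all genes lay between -0.30 and -0.09 under cantharidin and between -0.11 and 0.26 under OA over the scalings and background corrections. CCL16 reversed to 1.26 under OA with the median over its probes, and CCL18 to -0.011 under cantharidin and 0.49 for OA against cantharidin with dim signals at the floor. These follow from the second CCL16 probe and from CCL18 signals below background. Spot noise limits dim genes most. The median SD of replicate spots under an intensity of 100 was 0.28, 0.30 and 0.29 (log2), and 0.05, 0.07 and 0.05 over 1000. No paired analysis was possible because each group held 1 array, and for the same reason no array could be left out.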
